A study of Mus musculus with 17 samples.

Results

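The CYP4 fatty acid omega-hydroxylases are 10 mouse genes, Cyp4a10, Cyp4a12a, Cyp4a12b, Cyp4a14, Cyp4a31, Cyp4a32, Cyp4f13, Cyp4f14, Cyp4f15 and Cyp4v3. They were taken by gene symbol from a table of 48440 genes measured by poly(A) RNA sequencing of mouse liver, and each symbol matched 1 row. The 3 groups were miR-29 transgenic (TG) mice aged 2 months (6 libraries, 5 male and 1 female), wild-type B6 mice aged 2 years (5 libraries, 3 male and 2 female) and wild-type B6 mice aged 2 months (6 libraries, 4 male and 2 female), called here transgenic, old wild-type and young wild-type. The title of the series links miR-29 to ageing, and the design allows transgenic and old wild-type liver each to be set against young wild-type liver. Libraries came in 2 batches that differed in kit and sequencing centre, an Illumina TruSeq batch (A, 10 libraries) and an NEBNext Ultra II Directional batch (B, 7 libraries), which held males only. The labels give neither the miR-29 gene or promoter of the transgene nor the cells that carry it. They do not say that the libraries of a group came from separate animals, so p-values measure the spread between libraries.

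CYP4 enzymes are heme monooxygenases of the endoplasmic reticulum that add a hydroxyl group to the last carbon of a fatty acid chain. Alcohol and aldehyde dehydrogenases then turn that end into a second carboxyl group, and peroxisomes shorten the resulting dicarboxylic acid. In mouse liver Cyp4a10 and Cyp4a14 are classical targets of the fatty acid receptor PPAR alpha that are induced by fasting and fibrates. Cyp4a12a is the male-predominant enzyme that makes 20-HETE from arachidonic acid, and several Cyp4f enzymes inactivate leukotriene B4 and related lipids.

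The 6 Cyp4a genes lie in 1 cluster of 322.557 kb (chr4:115299046-115621602) and the 3 Cyp4f genes in another of 261.776 kb (chr17:32685627-32947402), while Cyp4v3 stands alone on chromosome 8 (chr8:45304944-45333216, minus strand; all coordinates are GENCODE M21 on GRCm38, the assembly called mm10). All 10 are annotated as protein coding. Some Cyp4a genes are near copies, and this bears on the values of Cyp4a12a, Cyp4a12b, Cyp4a10, Cyp4a31 and Cyp4a32. The coding sequences of Cyp4a12a (chr4:115299046-115332815, plus strand) and Cyp4a12b (chr4:115411624-115439034, plus strand) were 98.5% identical and differed at 23 of 1527 bases. Of all 50-base words in their transcripts, 48.9% of those in Cyp4a12a and 49.4% of those in Cyp4a12b were shared. The stretch from coding base 654 to 683 shows how little separates them, with the 4 bases that differ in capitals.
Cyp4a12a: agttgaggacctgaacGatctcGtttttTC
Cyp4a12b: agttgaggacctgaacAatctcTtttttCT

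Cyp4a10 (chr4:115518264-115533649, plus strand) was 97.2% identical to Cyp4a32 (chr4:115600969-115621602, plus strand) and 96.6% identical to Cyp4a31 (chr4:115563649-115579015, plus strand) over the coding sequence. The 3 genes differed at 77 of 1530 aligned positions. Coding bases 1448 to 1477 are shown as the stretch in which all 3 can be told apart, again with differing positions in capitals.
Cyp4a10: ctaccagggtCcccATgCccttagcCcgaC
Cyp4a31: ctaccagggtCcccATgTccttagcCcgaT
Cyp4a32: ctaccagggtTcccGAgCccttagcAcgaA

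A read from a shared stretch cannot be assigned to 1 copy, so the split between Cyp4a12a and Cyp4a12b, and among Cyp4a10, Cyp4a31 and Cyp4a32, is uncertain. Cyp4a14 (chr4:115486200-115496142, minus strand) shared no 50-base word with any other Cyp4a member, and its coding sequence was 75.4% identical to that of Cyp4a10.

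The transgene's product is a microRNA, which recognises targets by its seed, bases 2 to 8. The mature 3p arms of the mouse miR-29 family carry 1 shared seed, in capitals in the RefSeq sequences for GRCm38.p6.
mmu-miR-29a-3p: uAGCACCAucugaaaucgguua
mmu-miR-29b-3p: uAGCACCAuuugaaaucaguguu
mmu-miR-29c-3p: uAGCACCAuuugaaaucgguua

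The letters TGGTGCT, which pair with this seed, were searched on the transcript strand of each annotated 3′ UTR. None of the 9 members with a 3′ UTR of at least 30 bases held them, against 13.7% of the 12685 tested genes with such a UTR (1732 genes). Cyp4a32 has no annotated 3′ UTR. Poly(A) libraries do not measure mature miRNAs, so the transgene's product was not checked here.

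Values are normalized read counts as deposited, which are not divided by gene length. They summed to between 28077001 and 44543936 per library, and the sequencing depth behind them is unknown. Fold changes are log2 differences of (value + 1) from a limma fit with batch and sex as terms, given with their standard error. They were adjusted over the 14588 genes that averaged at least 10, and a gene is called where the adjusted p is under 0.05. All 10 members passed this filter. None of 10 hepatocyte markers was called in the transgene, age, transgenic against old or sex comparison, with a median fold change of 0.12 on the log2 scale in transgenic against young wild-type liver.

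Levels between genes can be compared only per length, here as normalized count per kb of the transcript with the longest coding sequence. The orders below pool both sexes, and the young wild-type order fits neither sex. In young wild-type males Cyp4a14 (mean 323) and Cyp4a10 (590) stood below Cyp4f14 (3463), Cyp4a12a (3403) and Cyp4v3 (3197). In young wild-type females Cyp4a14 averaged 12558 and Cyp4a12a 77.5. In transgenic liver Cyp4a14 (mean 5412) and Cyp4a10 (4525) stood highest, followed by Cyp4f14 (1565), Cyp4f15 (1340.0), Cyp4f13 (810) and Cyp4v3 (780), then by Cyp4a31 (276) and Cyp4a32 (128), and Cyp4a12a (9.80) and Cyp4a12b (6.50) stood lowest. In old wild-type liver Cyp4a14 (8539) and Cyp4a10 (8242) again stood highest, followed by Cyp4f14 (2704), Cyp4v3 (2016), Cyp4f15 (1615), Cyp4f13 (857), Cyp4a12a (349), Cyp4a32 (263), Cyp4a12b (114) and, lowest, Cyp4a31. In young wild-type liver the order ran from Cyp4a14 (4402) over Cyp4f14 (3534), Cyp4a10 (3110.2), Cyp4v3 (2958), Cyp4a12a (2294), Cyp4f15 (1785), Cyp4f13 (1141) and Cyp4a12b (513) to Cyp4a32 (226) and Cyp4a31 (95.2). The SD of Cyp4a14, 6449 per kb in young wild-type liver, exceeded its mean, so its place in that order is not fixed by these libraries. The SD likewise exceeded the mean for Cyp4a12a (2803), Cyp4a10 (4086) and Cyp4a12b (585), and no test between genes was run. In old wild-type liver the SD also exceeded the mean for Cyp4a14 (8774), Cyp4a12a (480), Cyp4a32 (332), Cyp4a12b (150) and Cyp4a31 (110). In transgenic liver it did so for Cyp4a10 (4659), Cyp4a31 (427) and Cyp4a12b (8.84). The places of these genes are not fixed either.

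The transgene changed 5 of the 10 genes against young wild-type liver. Cyp4a12a, Cyp4a12b, Cyp4f14 and Cyp4v3 fell and Cyp4a14 rose. Over all genes tested, 6.71% were called, 2.89% higher (421 genes) and 3.83% lower (558 genes). That split was 516 higher and 455 lower after rescaling the libraries to equal upper quartiles. The median fold change of the members was -0.61 on the log2 scale, and 0.01 over all genes tested. Without batch and sex as terms Cyp4v3 was the only member called, with Cyp4a12a at -6.23 (adjusted p = 0.0765), Cyp4a12b at -4.71 (adjusted p = 0.190), Cyp4a14 at 2.65 (adjusted p = 0.424) and Cyp4f14 at -1.39 (adjusted p = 0.0512).

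Cyp4a12a was nearly lost from male transgenic liver. Its normalized count was 43.6, 21.2, 4.48, 1.87 and 37.4 in the 5 transgenic males, against 16494, 11438, 2371 and 2661 in the 4 young wild-type males. Every transgenic male lay below every young wild-type male. In the fit over both sexes the log2 fold change of Cyp4a12a was -6.87 ± 1.33 (adjusted p = 0.00435), and among males alone it was -8.46 ± 0.96 (adjusted p = 0.000391).

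Its near copy Cyp4a12b had 2.82, 10.97, 5.60, 2.80 and 13.4 normalized counts in the transgenic males, against 3055, 2955, 622 and 662 in the young wild-type males. Here too the male groups did not overlap, which held for 3.44% of all genes tested in this direction. The log2 fold change of Cyp4a12b was -5.33 ± 1.44 (adjusted p = 0.0346), and -7.51 ± 0.79 among males (adjusted p = 0.000252). The call over both sexes was lost on leaving out any 1 of 10 libraries (transgenic 1, 2, 4, 5 or 6, young wild-type 1, 2, 3, 5 or 6), with an adjusted p of at most 0.0823, and with no filter on low values (adjusted p = 0.0585). Over all libraries left out in turn the fold change ran from -7.37 to -4.61. The sum of both copies was 4.67 to 50.8 in transgenic males, against 2993 to 19549 in young wild-type males. This sum does not depend on how reads were split between the copies, but it would depend on whether shared reads were dropped, which is not known.

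Within batch A the fold change was -5.70 ± 1.90 for Cyp4a12a and -4.39 ± 2.40 for Cyp4a12b. Within batch B, all male, it was -8.22 ± 1.66 and -6.50 ± 1.16. Of these 4 values only that of Cyp4a12b in batch B was called (adjusted p = 0.0433), in fits that called 3.39% of all genes in batch A and 1.8% in batch B. No transgene effect on a member was called as different between the batches, where 0.0411% of all genes were called. At an unadjusted p under 0.05 there were 0 members, against 10.1% of all genes.

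**Figure D1:**
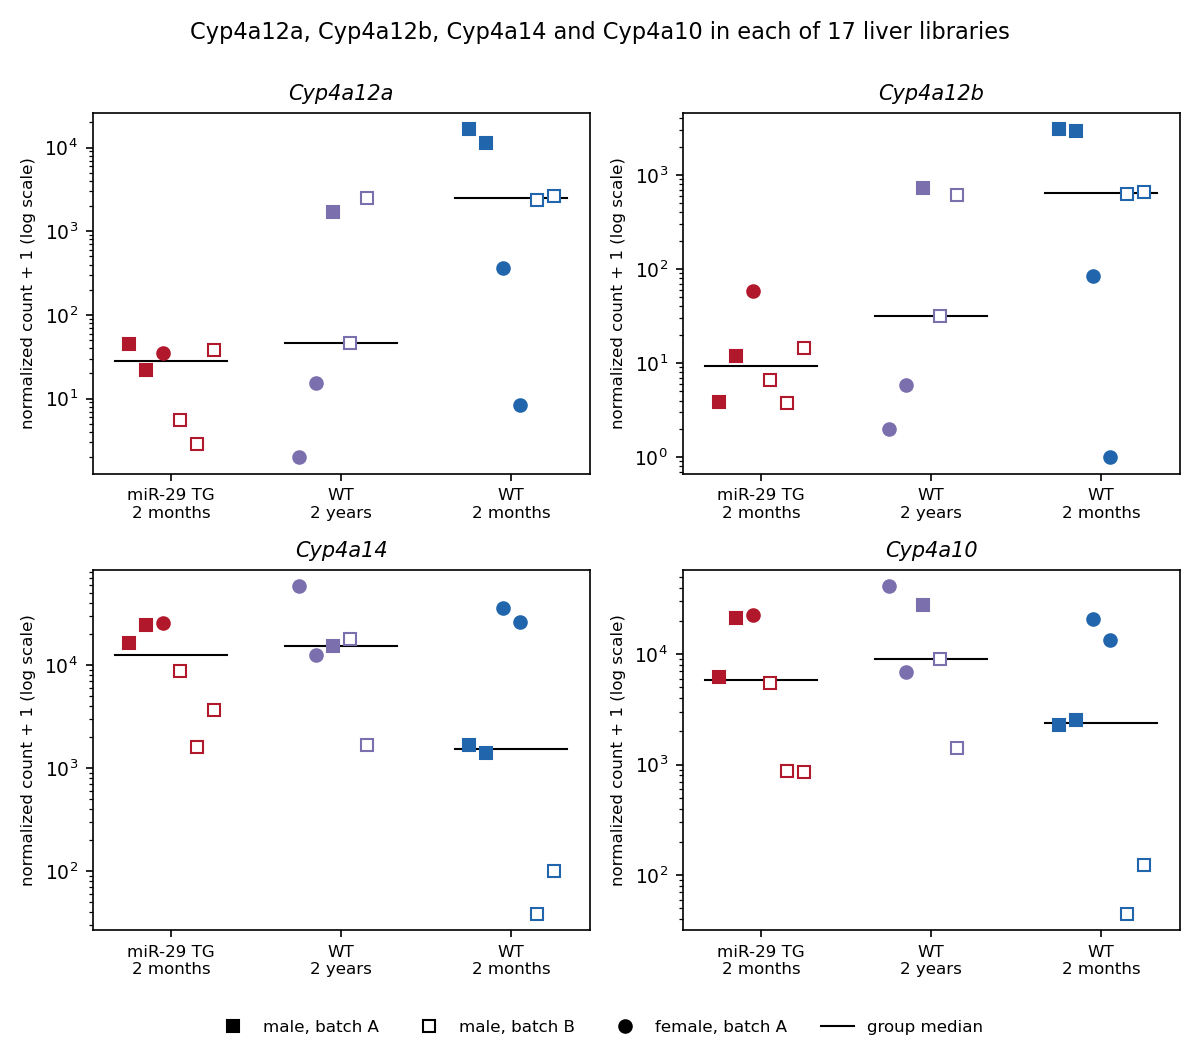
Normalized count + 1 on a log scale for Cyp4a12a, Cyp4a12b, Cyp4a14 and Cyp4a10 in each of 17 liver libraries, with squares for males, circles for females, open symbols for batch B and a line at the group median. For Cyp4a12a the 5 transgenic males sit between 1.87 and 43.6 (value before adding 1), under all 4 young wild-type males at 2371 to 16494, and the panels of Cyp4a14 and Cyp4a10 show the young wild-type males under both young wild-type females.

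Cyp4a14 moved the other way. Its normalized count was 16456, 24904, 8774, 1608 and 3651 in the transgenic males, against 1685, 1404, 37.7 and 100.2 in the young wild-type males. The transgenic males were higher on the whole, but the lowest of them lay just under the highest young wild-type male. The only transgenic female had 25653, below both young wild-type females at 36329.8 and 26361. The log2 fold change of Cyp4a14 was 3.46 ± 0.91 over both sexes (adjusted p = 0.0300) and 4.86 ± 0.73 among males (adjusted p = 0.00235).

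The call of Cyp4a14 over both sexes was lost without any 1 of 7 libraries (transgenic 2, 4 or 6, young wild-type 1, 2, 5 or 6), with an adjusted p of at most 0.0883, and the fold change over all libraries left out in turn was 2.75 to 4.01. The fold change was 2.03 ± 0.87 within batch A (adjusted p = 0.235), which holds all the females, and 5.90 ± 1.06 within batch B (adjusted p = 0.0435), which is all male. The transgene effect in batch B minus that in batch A was 1.497 ± 1.62 with sex as a term (adjusted p = 0.828).

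Cyp4a10, the other PPAR alpha target of the cluster, had 6232, 21203, 5533, 876 and 864 normalized counts in the transgenic males, against 2286, 2527, 43.6 and 121 in the young wild-type males. In each batch the transgenic males lay above the young wild-type males, for Cyp4a14 as well as for Cyp4a10. This rests on 2 against 2 libraries in batch A and 3 against 2 in batch B. The share of all genes with this pattern was not counted. Pooled over batches the male groups overlapped for both genes. The fitted fold change of Cyp4a10 was 1.39 ± 0.85 within batch A (adjusted p = 0.394) and 4.45 ± 1.04 within batch B (adjusted p = 0.0775), and neither was called. Over both sexes the fold change of 2.52 ± 0.82 was not called (adjusted p = 0.0763), and it was called in a fit of these 2 groups alone (2.75 ± 0.65, adjusted p = 0.0183). Among males Cyp4a10 rose by 3.43 ± 0.72 (adjusted p = 0.0161), in a fit that called 5.05% of all genes.

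Cyp4a14 and Cyp4a10 varied together over the libraries. The ratio of their normalized counts, which carries the difference in length, stayed between 0.546 and 4.23 while the level of Cyp4a14 ranged from 37.7 to 58897. It was 1.14 to 4.23 in transgenic, 0.546 to 1.96 in old wild-type and 0.555 to 1.95 in young wild-type libraries. Among males the ratio was 1.17 to 4.23 in transgenic, 0.546 to 1.96 in old wild-type and 0.555 to 0.864 in young wild-type libraries. Transgenic and young wild-type males did not overlap, while the young wild-type females, at 1.74 and 1.95, lay within the transgenic range. The ratio was not tested, and how many other gene pairs separate these males was not counted. The make-up of the cluster differed between the male groups. Cyp4a12a and Cyp4a12b together made up 0.0679% to 1.09% of the summed normalized count of the 6 Cyp4a genes in transgenic males, against 75.4% to 95.4% in young wild-type males. The sum of all 6 genes, in contrast, overlapped between these males, at 2554 to 47284 in transgenic and 3138 to 24413 in young wild-type liver.

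Cyp4a31 and Cyp4a32 were expressed at lower levels and did not pass the test. Cyp4a31 had a lowest, median and highest normalized count of 36.9, 239.8 and 2818 in transgenic liver, against 1.21, 258 and 448 in young wild-type liver. The groups overlapped widely, and 1 transgenic male held the value of 2818. The fold change was 1.88 ± 0.86 for Cyp4a31 (adjusted p = 0.217) and -0.74 ± 0.49 for Cyp4a32 (adjusted p = 0.432). Cyp4a32 ranged from 28.3 to 401 in transgenic and from 62.5 to 569 in young wild-type liver.

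Cyp4v3 gave the steadiest difference of the 10 genes. It is the mouse counterpart of human CYP4V2, a fatty acid omega-hydroxylase whose loss causes a crystalline retinal dystrophy. Its normalized count was 1881 at the lowest, 2767 at the median and 4276 at the highest in transgenic liver, against 6212, 9798 and 18559 in young wild-type liver. All 6 transgenic libraries lay below all 6 young wild-type libraries, which held for 1.84% of genes tested in this direction. On the log2 scale the fold change was -1.82 ± 0.22 (adjusted p = 0.000144). It was -2.05 ± 0.23 within batch A (adjusted p = 0.00402) and -1.55 ± 0.36 within batch B, where it was not called (adjusted p = 0.0775). Without any 1 library the fold change stayed between -1.95 and -1.71, with an adjusted p of at most 0.000848.

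Cyp4f14, the mouse leukotriene B4 and vitamin E omega-hydroxylase, had 1223, 2554 and 6401 normalized counts as lowest, median and highest in transgenic liver, against 5085, 7998 and 10565 in young wild-type liver. Most transgenic libraries were lower, and 2 transgenic males with 6401 and 6068 lay among the young wild-type values. The log2 fold change of Cyp4f14 was -1.37 ± 0.37 (adjusted p = 0.0350). This call was lost without any 1 of 9 libraries (transgenic 2, 3, 5 or 6, young wild-type 1, 2, 3, 4 or 6), with an adjusted p of at most 0.120, and the fold change over all libraries left out in turn was -1.60 to -0.96. It was also lost with males alone (-1.06 ± 0.37, adjusted p = 0.128) and within batch A (-1.86 ± 0.48, adjusted p = 0.0770) and batch B (-0.78 ± 0.47, adjusted p = 0.379), with no filter (adjusted p = 0.0584) and after upper-quartile rescaling (adjusted p = 0.0519).

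The remaining Cyp4f genes did not pass the test. Cyp4f13 averaged 1419 ± 316 normalized counts in transgenic and 1999 ± 462 in young wild-type liver (SD, n = 6 each), a fold change of -0.49 ± 0.20 (adjusted p = 0.165). Cyp4f15 averaged 2905 ± 656 in transgenic and 3870.2 ± 887 in young wild-type liver, a fold change of -0.33 ± 0.23 (adjusted p = 0.464). The transgenic range of both genes overlapped that of young wild-type liver, with 1023 to 1843 in transgenic against 1550 to 2608 in young wild-type liver for Cyp4f13, and 2281 to 3754 in transgenic against 3017 to 5164 in young wild-type liver for Cyp4f15.

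**Figure D2:**
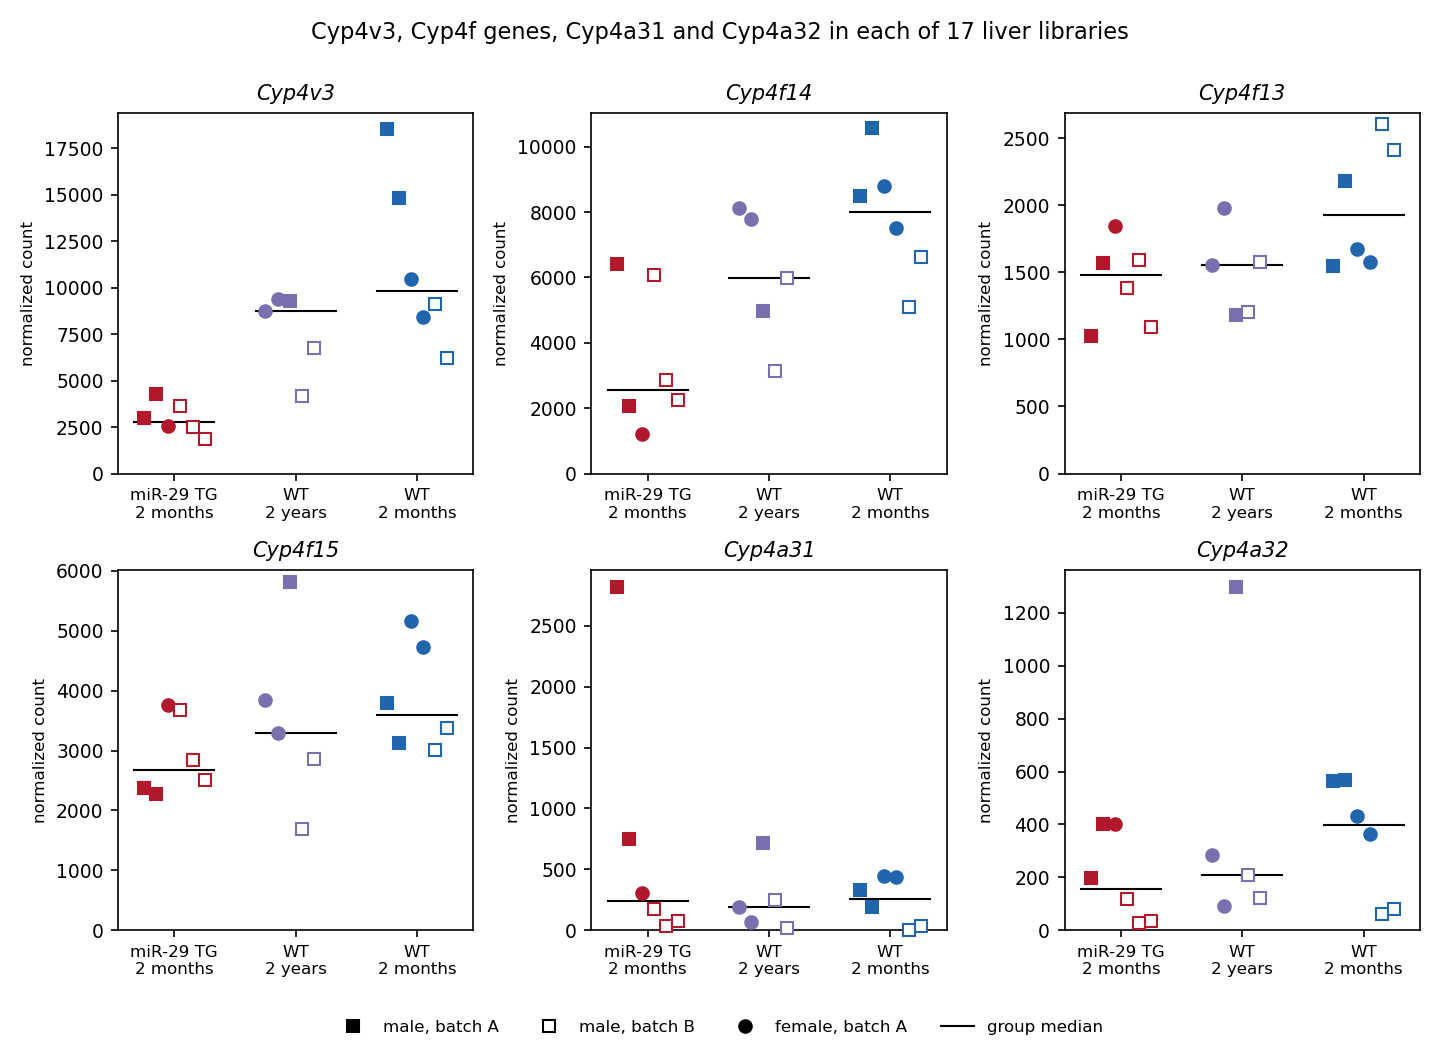
Normalized count on a linear scale from 0 for Cyp4v3, Cyp4f14, Cyp4f13, Cyp4f15, Cyp4a31 and Cyp4a32 in each of 17 liver libraries, with squares for males, circles for females, open symbols for batch B and a line at the group median. Cyp4v3 is the panel with no overlap between transgenic (1881 to 4276) and young wild-type libraries (6212 to 18559), and the Cyp4a31 and Cyp4a32 panels each show 1 male far above its group, at 2818 and 1299.9.

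Markers of neutrophils and some erythroid markers rose with the transgene, in a comparison that called 2.89% of all genes higher and 3.83% lower. All 9 tested neutrophil markers of 10 listed rose, and their summed normalized count was 522 to 44375 in transgenic, 132 to 2134 in old wild-type and 55.7 to 493 in young wild-type libraries. The tenth, Ly6g, was at 0 in all young wild-type libraries and reached 47.8 in transgenic ones. Of 8 erythroid markers 4 rose, with sums of 23314 to 1592730 in transgenic, 14384 to 96626 in old wild-type and 16445 to 201859 in young wild-type libraries, and both alpha globin genes had fold changes below 0. Markers of other cell types were mostly not called. Of 10 Kupffer cell and macrophage markers 1 rose, as did 1 of 8 sinusoidal endothelial markers. Of 6 tested cholangiocyte markers 1 fell, as did 1 of 9 stellate cell and fibroblast markers. Of 5 tested B and plasma cell markers and 8 T and NK cell markers 0 were called. The part of these cells in the CYP4 results was not tested, and in bulk liver fewer cells of a type and less RNA per cell cannot be told apart.

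In wild-type liver, sex separated the Cyp4a12 genes from the rest. Cyp4a12a had 1701, 45.5 and 2469 normalized counts in the 3 old males and 16494, 11438, 2371 and 2661 in the 4 young males, against 0.999 and 14.4 in the old females and 368 and 7.43 in the young females. The males exceeded the females of their own age in each case, and among young libraries this held for both Cyp4a12 genes and for 11.6% of all genes. The log2 difference, male minus female, was 8.09 ± 1.39 for Cyp4a12a (adjusted p = 0.0232) and 8.07 ± 1.30 for Cyp4a12b (adjusted p = 0.0186). These were the only 2 members called, against 0.583% of all genes in either direction and 0.267% higher in males. Both calls were lost without any 1 of old wild-type 1 or 3 or young wild-type 1 or 2, and that of Cyp4a12a also without young wild-type 4. The adjusted p was then at most 0.183 for Cyp4a12a and 0.135 for Cyp4a12b, and over all libraries left out in turn the difference was 6.98 to 9.31 for Cyp4a12a and 6.60 to 9.35 for Cyp4a12b. Both calls were also lost in batch A alone (adjusted p = 0.0651 for Cyp4a12a and 0.0769 for Cyp4a12b), in young wild type alone (0.0755 for Cyp4a12a and 0.104 for Cyp4a12b) and with no filter (0.172 for Cyp4a12a and 0.138 for Cyp4a12b).

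At 2 months the PPAR alpha targets showed the opposite sex pattern. Cyp4a14 had 1685, 1404, 37.7 and 100.2 in young wild-type males, against 36329.8 and 26361 in young wild-type females. Cyp4a10 had 2286, 2527, 43.6 and 121 in these males, against 20860.0 and 13518 in these females. All young males lay below both young females for Cyp4a10, Cyp4a14, Cyp4a31 and Cyp4f15, a pattern that held for 12.3% of all genes.

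Over both ages the male minus female difference was -2.60 ± 1.30 for Cyp4a14 (adjusted p = 0.649) and -1.13 ± 1.14 for Cyp4a10 (adjusted p = 0.838). It was 1.60 ± 0.57 for Cyp4a32, 0.79 ± 1.26 for Cyp4a31, 0.50 ± 0.26 for Cyp4v3, -0.16 ± 0.26 for Cyp4f13, -0.14 ± 0.27 for Cyp4f14 and -0.0644 ± 0.30 for Cyp4f15, none of them called (adjusted p from 0.446 to 0.971). In young wild type alone it was -4.33 ± 0.43 for Cyp4a14 (adjusted p = 0.00719) and -2.80 ± 0.46 for Cyp4a10 (adjusted p = 0.0476), in a fit that called 1.06% of genes.

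Whether the transgene acted alike in both sexes was asked by an interaction term, which rests on 1 transgenic female and cannot be told apart from a trait of that library. Cyp4a12b was the only member called, with an effect in males minus females of -9.77 ± 2.02 (adjusted p = 0.0200), against 2.41% of genes. The transgenic female had 57.9 normalized counts of Cyp4a12b, against 83.4 and 0 in the young wild-type females. These female values lay below the 622 to 3055 of the young wild-type males, and the part of low female values in the difference was not tested. For Cyp4a12a the difference was -7.95 ± 2.15 (adjusted p = 0.0651), with 33.8 in the transgenic female. For Cyp4f14 it was 1.97 ± 0.65 (adjusted p = 0.128), and the transgenic female had the lowest Cyp4f14 of all 17 libraries, at 1223.

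**Figure D3:**
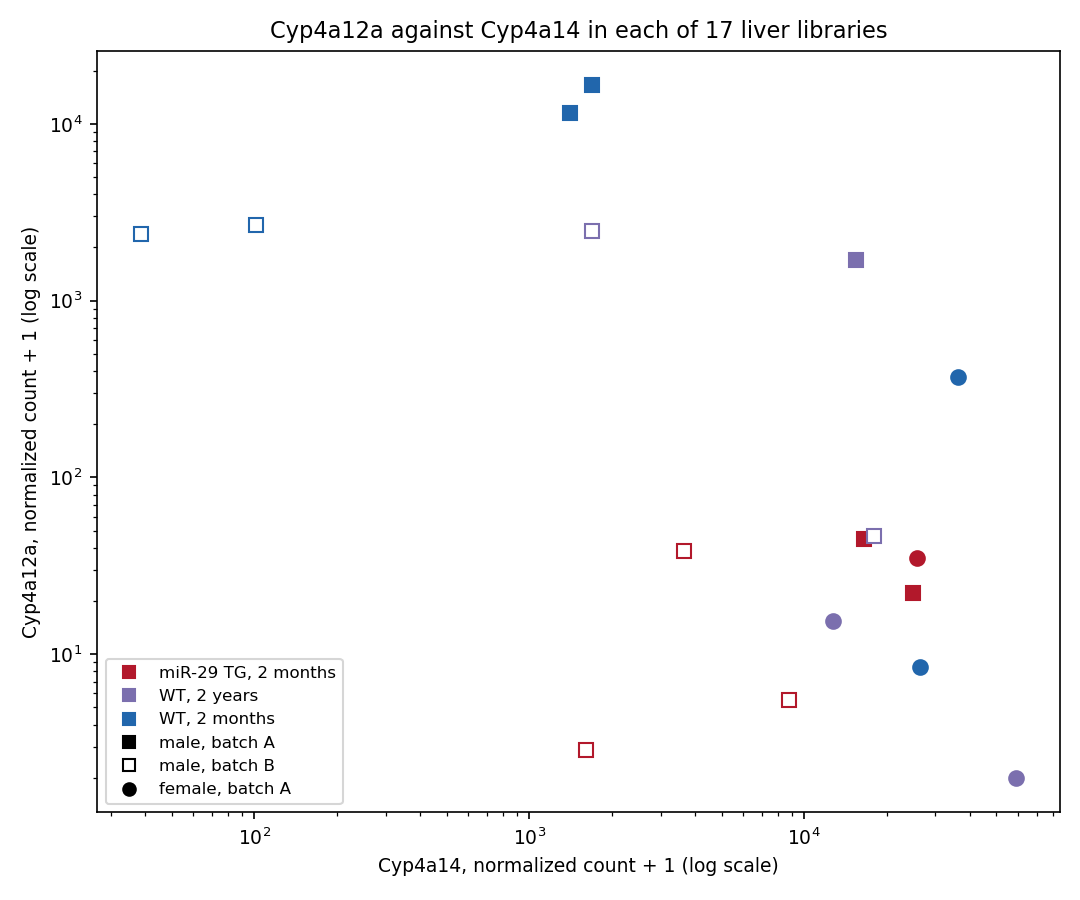
Normalized count + 1 of Cyp4a12a (vertical, log scale) against Cyp4a14 (horizontal, log scale), 1 point for each of 17 liver libraries, with colour for the group, squares for males, circles for females and open symbols for batch B. Young wild-type males form the upper left (Cyp4a12a 2371 to 16494), and the transgenic males lie lower, at a Cyp4a12a of 1.87 to 43.6, with a Cyp4a14 of 1608 to 24904.

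Sex-biased genes outside the family moved with the transgene as well, and their part in the CYP4 result was not tested. Of 15 male-biased liver genes, all tested, 15 fell, where 3.83% of all genes were called lower. Their median fold change was -6.65, with summed normalized counts of 12649 to 45257 in transgenic and 146673 to 3970070 in young wild-type libraries. In the wild-type sex comparison 3 of these 15 were called, all higher in males. Of 16 female-biased genes 8 rose, where 2.89% of all genes were called higher. Their median was 4.23, with sums of 21273 to 91808 in transgenic and 509 to 208239 in young wild-type libraries. In the wild-type sex comparison 11 of these 16 were called, all lower in males. With age 3 male-biased genes fell (median -3.28) and 0 female-biased genes were called (median 2.35), against 0.144% of all genes. Male-biased sums were 15630 to 45257 in transgenic, 72348 to 920152 in old wild-type and 2497200 to 3970070 in young wild-type males. Female-biased sums were 21273 to 83502, 1972 to 24122 and 509 to 1510 in these male groups.

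With age, in wild type, none of the 10 genes was called, against 0.144% of all genes. By the unadjusted p, 3 members were under 0.05, namely Cyp4a10, Cyp4a14 and Cyp4a12a, against 8.73% of genes. Cyp4a14 had 58897, 12729, 15361, 17891 and 1691 normalized counts in the 5 old wild-type livers, against a lowest, median and highest of 37.7, 1544 and 36329.8 in young wild-type liver. Pooled over sex the groups overlapped, while the 3 old males (15361, 17891 and 1691) all lay above the 4 young males, which held for 3.86% of genes. The lowest old male did so only just, at 1691 against 1685 in the highest young male.

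The fitted age effect was 3.20 ± 0.94 for Cyp4a14 (adjusted p = 0.307) and 2.96 ± 0.85 for Cyp4a10 (adjusted p = 0.287). Cyp4a10 had 41303, 6907, 28159, 9135 and 1406 in old wild-type liver, against 43.6, 2407 and 20860.0 as lowest, median and highest in young wild-type liver. Among males alone both rose with age, Cyp4a14 by 5.14 ± 0.84 (adjusted p = 0.0293) and Cyp4a10 by 4.68 ± 0.83 (adjusted p = 0.0366), where 0.281% of genes were called. The male old group is 1 library of batch A and 2 of batch B. An interaction of age with sex, added after the data were seen, called no member and 0.0137% of genes. At an unadjusted p under 0.05 there were 5 members, against 20.4% of genes, and Cyp4a14 had the largest difference of effects, 5.32 ± 1.38 (adjusted p = 0.163).

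Within batch A the age effect was 1.34 ± 0.87 for Cyp4a14 and 1.44 ± 0.85 for Cyp4a10, and within batch B it was 6.46 ± 1.16 and 5.60 ± 1.14. None of these 4 values was called, with 0.00685% of all genes called in batch A and 0 in batch B. Cyp4a12a had an age effect of -3.23 ± 1.38 (adjusted p = 0.543), and its old males were split, with 1701 and 2469 in 2 of them and 45.5 in the other. The last lay just above the highest transgenic male, at 43.6. Cyp4v3, which had 8768, 9381, 9265, 4189 and 6775 in old wild-type liver, had an age effect of -0.44 ± 0.23 (adjusted p = 0.594). The other fitted age effects were -2.15 for Cyp4a12b, 0.76 for Cyp4a31, 0.21 for Cyp4a32, -0.44 for Cyp4f13, -0.39 for Cyp4f14 and -0.23 for Cyp4f15, and the median of all 10 was -0.31.

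**Figure D4:**
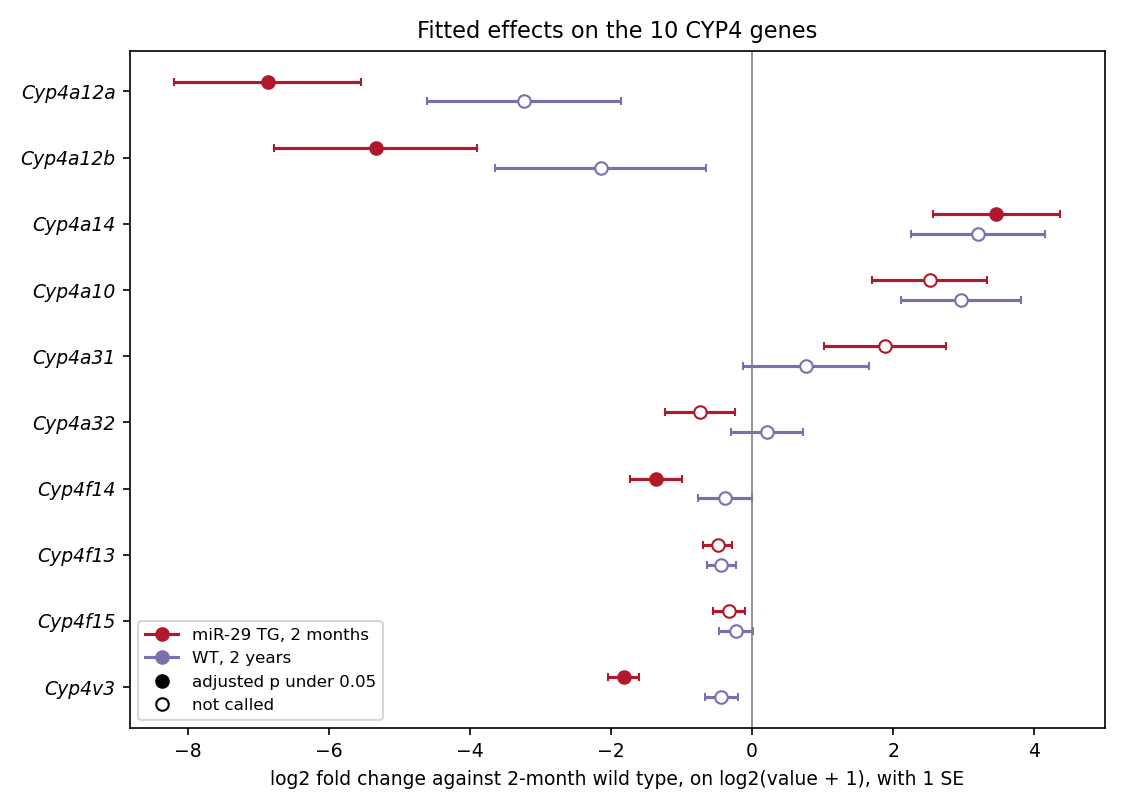
Fitted log2 fold changes of the 10 CYP4 genes against young wild type, with 1 standard error, for transgenic (red) and old wild-type liver (purple); filled points have an adjusted p under 0.05. The 5 filled points are all transgenic, from Cyp4a12a at -6.87 to Cyp4a14 at 3.46, and both comparisons share the same 6 young wild-type libraries.

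The transgene and age effects share the young wild-type libraries, so transgenic and old wild-type liver were compared directly. Cyp4v3 was the only member called, with a log2 difference of -1.38 ± 0.23 (adjusted p = 0.00359), against 2.55% of all genes. It ranged from 1881 to 4276 in transgenic and from 4189 to 9381 in old wild-type libraries, so that a single transgenic library exceeded the lowest old one. This call was lost among males (-1.18 ± 0.28, adjusted p = 0.0751) and within batch B (-1.05 ± 0.36, adjusted p = 0.395), where 0.308% of genes were called.

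For Cyp4a14 and Cyp4a10 the direct difference was 0.26 ± 0.96 (adjusted p = 0.931) and -0.44 ± 0.86 (adjusted p = 0.866), with standard errors that leave room for a difference in either direction. Cyp4a12a (-3.63 ± 1.40, adjusted p = 0.214) and Cyp4a12b (-3.19 ± 1.52, adjusted p = 0.333) were not called over both sexes. Among males both were lower in transgenic liver, with differences of -5.49 ± 1.04 (adjusted p = 0.0225) and -5.19 ± 0.86 (adjusted p = 0.0104), where 1.2% of genes were called. Both were also called without the transgenic female, which is transgenic library 3 (-5.41 for Cyp4a12a and -5.38 for Cyp4a12b). The remaining members were not called, with differences of 1.12 ± 0.91 for Cyp4a31, -0.95 ± 0.52 for Cyp4a32, -0.98 ± 0.39 for Cyp4f14, -0.0524 ± 0.21 for Cyp4f13 and -0.0947 ± 0.25 for Cyp4f15 (adjusted p from 0.234 to 0.938).

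The authors' deposited table for the transgene, made with DESeq2, gives an adjusted p under 0.05 for 14.1% of its 15714 genes. In the authors' deposited table Cyp4a12a is at -6.80, Cyp4a12b at -5.94, Cyp4a14 at 4.18, Cyp4f14 at -1.26 and Cyp4v3 at -1.84 (log2 fold changes, all under an adjusted p of 0.05). The authors' deposited table also has Cyp4a31 at 2.11 with an adjusted p of 0.0434, which the limma fit did not call. For Cyp4a32, Cyp4f13 and Cyp4f15 the authors' deposited table has adjusted p values of 0.518, 0.141 and 0.233, and Cyp4a10 was not analysed here from it. In the authors' deposited table for age (1.77% of 15814 genes called) no member is under 0.05, and Cyp4a14 (3.48, adjusted p = 0.0551) and Cyp4a10 (3.37, adjusted p = 0.0568) come nearest.

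The other genes of omega-oxidation did not move as 1 block in transgenic against young wild-type liver. Among 4 electron donors, Por, the reductase that feeds electrons to all microsomal P450 enzymes, rose by 1.44 ± 0.39 (adjusted p = 0.0361), while Cyb5b and Cyb5r3 of the cytochrome b5 system fell by 1.32 ± 0.38 and 1.64 ± 0.32 (adjusted p = 0.0486 and 0.00447). Cyb5a, the cytochrome b5 gene with the higher counts, was not called (-0.0388 ± 0.22, adjusted p = 0.945). It averaged 30990 normalized counts in transgenic and 32861 in young wild-type liver. Of 8 tested alcohol and aldehyde dehydrogenases 3 fell and none rose. Adh4, which oxidises omega-hydroxy fatty acids, fell by 2.13 ± 0.21, Aldh1a1 by 1.79 ± 0.36 and Aldh9a1 by 0.87 ± 0.24. Of 18 genes for dicarboxylic acid and peroxisomal beta-oxidation 8 fell and none rose, among them the thiolase Acaa1b (-2.54 ± 0.45), the carnitine octanoyltransferase Crot (-2.12 ± 0.34) and the peroxisome proliferation factor Pex11a (-1.30 ± 0.30).

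Most other PPAR alpha targets did not pass the test. Of 28 tested 1 rose, the fatty acid transporter Cd36 (2.17 ± 0.28), and 7 fell, including the fatty acid binding protein Fabp1 (-4.90 ± 1.01), the pantetheinase Vnn1 (-1.89 ± 0.42) and the lipid droplet coat protein Plin2 (-1.84 ± 0.39). Over all genes tested 2.89% were called higher and 3.83% lower. The list median was -0.64, against 0.01 over all genes tested. Ppara itself, the receptor, fell by 1.44 ± 0.37 (adjusted p = 0.0284), with 695 ± 381 normalized counts in transgenic and 1467 ± 888 in young wild-type liver (SD, n = 6 each).

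Among the regulators the growth hormone receptor Ghr also fell, by 1.55 ± 0.28. The 3 that rose were Cux2, a female-biased transcription factor (4.83 ± 0.88), Ppargc1a (1.48 ± 0.41) and Pparg (1.04 ± 0.22).

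Enzymes that compete for or share the substrates were split too. Of 15 epoxygenases and epoxide hydrolases, which turn arachidonic acid into epoxides and diols, 2 rose (Cyp2c39 by 3.75 ± 0.56 and Cyp2c38 by 2.88 ± 0.43) and 6 fell, led by Cyp2c55 (-2.58 ± 0.48), Cyp2c44 (-2.11 ± 0.35) and Cyp2j5 (-1.69 ± 0.39). Of 13 leukotriene and prostanoid genes Alox5 (3.0 ± 0.76) and Alox5ap (1.56 ± 0.44), which start leukotriene synthesis, rose and the prostacyclin synthase Ptgis fell (-1.36 ± 0.39). The neutrophil markers described above also rose, and a link between them and Alox5 or Alox5ap was not tested.

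Of 10 further mouse Cyp4 genes 4 were tested, and Cyp4f16 alone was called (1.02 ± 0.26, adjusted p = 0.0275), with 251 ± 78.2 normalized counts in transgenic and 124 ± 72.8 in young wild-type liver (SD, n = 6 each). Cyp4f18, the neutrophil leukotriene hydroxylase, had 49.2 ± 47.5 in transgenic and 28.6 ± 39.4 in young wild-type liver and was not called (1.0 ± 0.70, adjusted p = 0.462). The other 6 averaged below 10.

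**Figure D5:**
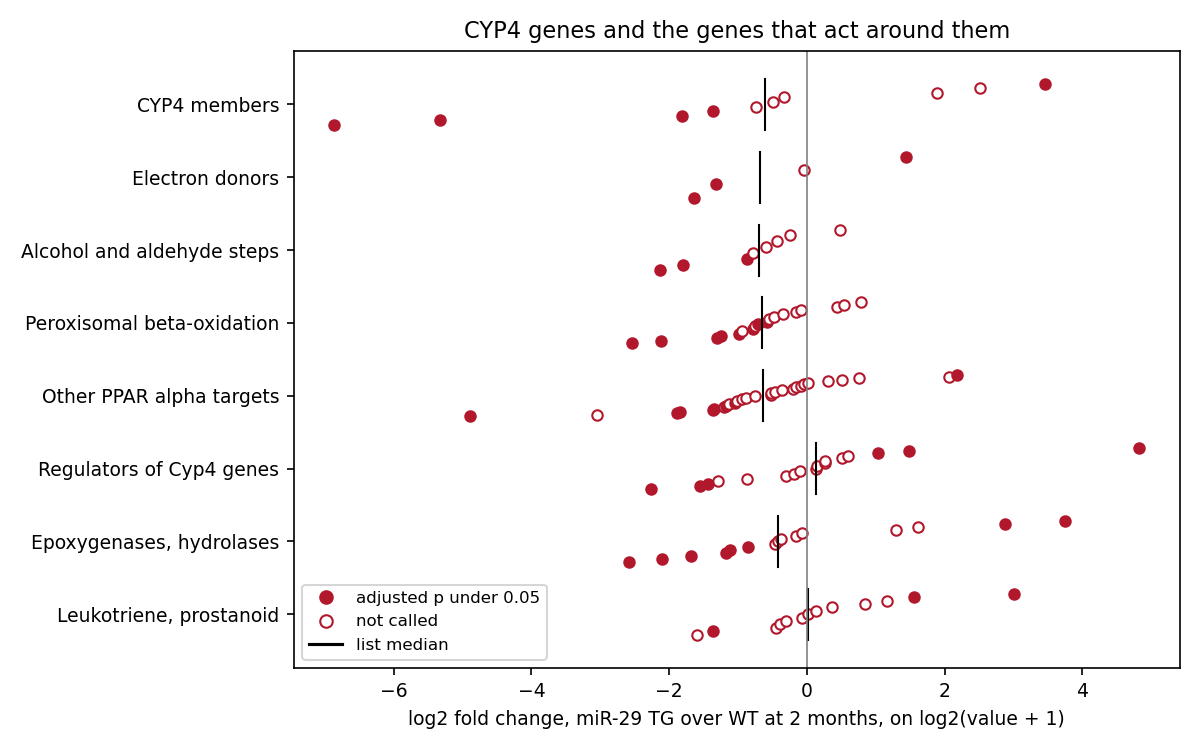
Fitted log2 fold changes, transgenic over young wild type, for the 10 CYP4 members and the genes of 7 lists, 1 point per tested gene, filled where the adjusted p is under 0.05, with a bar at the list median. The peroxisomal row holds 8 filled points, all below 0, while Cyp4a14 at 3.46 is the only filled member above 0.

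By Pearson correlation of log2(value + 1) over the 17 libraries, which share group, sex and batch, the non-member gene most like both Cyp4a10 and Cyp4a14 was Slc16a7, a monocarboxylate transporter (r = 0.957 for each). The nearest to Cyp4a12a was Nat8f5 (0.956) and to Cyp4a12b Cyp2d9 (0.912), a male-biased P450. For Cyp4v3 it was Ugt2b1 (0.959), for Cyp4f14 Ido2 (0.966), for Cyp4f13 Gm16548 (0.882) and for Cyp4f15 Cnep1r1 (0.809). Cyp4a31 lay nearest to Ly75 (0.953) and Cyp4a32 to Pdzd8 (0.947).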

How the data were processed

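Liver poly(A) RNA of 17 mouse libraries was analysed from 1 table for the whole series and 2 comparison tables. The table's values are DESeq2-normalized counts deposited by the authors (a signal in units of size-factor-scaled reads, not per length), in which whole reads were not recoverable, since 47.2% to 69.3% of low values lay within 0.1 of a whole step. The submitters' processing notes name STAR 2.5.3a, Salmon 0.6.0, DESeq2 and mm10, with no roles given. The comparison tables deposited by the authors hold a mean signal, log2 fold changes, a test score and p-values, and are named as corrected for batch and sex. Gene models were GENCODE M21.

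Values were tested as log2(value + 1) with limma 3.58.1 in R 4.3.3 (moderated tests with a mean-variance trend) on genes averaging at least 10, with group, batch and sex as terms and Benjamini-Hochberg adjustment over 14588 genes. The sex contrast used the 11 wild-type libraries with batch and age. A count test was not the main test because depth is unknown. The step was tested on simulated data. Sequence identity was computed with Biopython 1.88.

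All 10 members are named in the transgene, age, transgenic against old and sex comparisons. From each list at most the 3 largest called rises and falls are named, and for likeness the gene with the highest correlation. Cyb5a is named in addition, though not called, to complete the electron donors. The members and lists were chosen with earlier results of these data known. Alternatives covered the pseudocount, filter, scaling, terms, batch, sex, a replicate block, the authors' tables and each library left out. One regulator is not reported here.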

Additional observations from a re-analysis of the deposited data

Results flagged for a closer look

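Of 30 sets of a member's values within a group, 4 held a highest library that stood far from the rest by Dixon's rule. The rule was applied to normalized counts without a log, in groups that mix sexes and batches. Its chance rate of about 1 in 20 sets is for normally distributed values of 1 population. That rate need not hold here, so the 4 are not read as an excess. In transgenic liver Cyp4a12b was at 57.9 in library 3, the only female, and the next library had 13.4. Cyp4a31 was at 2818 in transgenic library 1, a batch A male, and the next had 746. In old wild-type liver Cyp4a14 was at 58897 in library 1, a female, and the next had 17891, and Cyp4a32 was at 1299.9 in library 3, the only batch A male, and the next had 286.

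The transgene effect on Cyp4a12b differed between the sexes, with a difference in log2 fold change, males minus females, of -9.77 (adjusted p = 0.0200, limma interaction term). Lower values were seen in 5 of 5 transgenic males against all 4 young wild-type males. The difference rests on 1 transgenic female and cannot be told apart from a trait of that library. The young wild-type females were at 83.4 and 0 and the transgenic female at 57.9, and the part of these low values in the difference was not tested.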

How the results depend on the processing

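Over the 40 member values (10 genes in 4 comparisons), 1049 alternative values were computed, of which 944 kept direction and side of the threshold, 61 lost the call, 14 gained one and 30 turned direction. The number of genes called for the transgene was 979, and it was 421 without batch and sex terms, 495 in batch A, 263 in batch B and 2210 in the authors' deposited table (genes matched by name). Members called were 5, and 3 with no filter, 1 without the terms, 1 in batch A, 2 in batch B and 2 to 6 with a library left out. Genes called for age were 21, and 9 at a mean of at least 50, 5 without terms, 41 in males (2 members), 1 in batch A, 0 in batch B, 10 with only the groups compared, 280 in the authors' deposited table and 9 to 37 with a library left out. For transgenic against old wild-type liver 372 genes were called, and 139 without terms, 175 in males (2 members), 175 in batch A, 45 in batch B (0 members), 120 with only the groups compared and 161 to 525 with a library left out (1 to 3 members). For sex 85 were called, and 44 with no filter (0 members), 155 in young wild type, 46 to 139 with a library left out (0 to 2 members), and 0 members in batch A.

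Deviations from group means of same-numbered libraries correlated at -0.227 to 0.593, and residuals of the fit at -0.316 to 0.384. Differently numbered libraries were not compared, so these values cannot show whether the replicate number marks pairs. With the number as a block, 11 genes were called for age, 247 for transgenic against old wild type and 31 for sex (0 members), and Cyp4f14 lost its transgene call (adjusted p = 0.0667). Cyp4f13 then turned to 0.00531 in transgenic against old wild type and Cyp4f15 to 0.0449 by sex.

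Values that turned direction were small or uncalled, and the cause was not tested. The age effect of Cyp4a31 was -0.50 in batch A and -0.0297 to 1.29 with a library left out, and that of Cyp4a32 -0.0386 without terms, -0.39 in batch A and -0.13 to 0.72 with a library left out. In transgenic against old wild type, Cyp4a14 was -0.51 without terms, -0.28 in males, -0.56 in batch B, -0.19 with only the groups compared and -0.29 to 1.21 with a library left out. Cyp4f13 was 0.0162 in males, 0.0254 with only the groups compared and -0.17 to 0.0329 with a library left out, Cyp4f15 was 0.43 in batch B and -0.31 to 0.25, and Cyp4a10 was -1.05 to 0.32. By sex, in young wild type alone, Cyp4a31 was -0.83, Cyp4f13 0.18 and Cyp4f14 0.22, and with a library left out Cyp4f14 was -0.31 to 0.12 and Cyp4f15 -0.54 to 0.16.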
